A study of Mus musculus with 4 samples.

Results

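Dividing cells in mouse liver non-parenchymal preparations were taken as those that held the transcripts of several genes of late cell division at once. A cell was counted as cycling when at least 3 of the 5 genes Mki67, Top2a, Ube2c, Birc5 and Cdk1 had at least 1 unique molecular identifier (UMI, which counts 1 captured transcript molecule). By this rule 345 of 32150 cells were cycling, with 148 of 10615 in the library S, 138 of 11068 in HFD_sed and 59 of 10467 in HFD_EXE. The 5 genes chose the cells, so their own levels, and every other difference between the cycling cells and their neighbours, are descriptions.

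The series holds single-cell RNA-seq of dissociated livers from C57BL/6J mice aged 30 weeks that differed in high fat diet (HFD) and exercise, with 1 library in each of 4 groups. S carries no diet in its title, HFD_sed and HFD_EXE carry the diet, and the labels do not spell out S, sed or EXE, so the groups keep these names. The library of the group E was not analysed here. No other genotype, drug or allele is named for any group. Livers were dissociated enzymatically, red blood cells were lysed and dead cells were removed before 10x Genomics 3′ version 3 capture. The number of animals behind a library is not given. With 1 library per group no test was possible, and the diet, the animal, the dissociation and the run cannot be told apart. Every interval below is a 95% interval that covers counting error only. Kept cells held a median of 6306 UMIs in S, 4272 in HFD_sed and 4975 in HFD_EXE, and no barcode of a cycling cell occurred among the kept cells of another library.

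In a dividing cell, cyclin-dependent kinases drive DNA replication and then mitosis, and the genes for each step are transcribed in waves. Replication genes rise first, under E2F transcription factors, and the genes for spindle, kinetochore and cytokinesis rise later, under B-Myb, FoxM1 and the complexes that bind the cell cycle homology element. Most liver cells rest outside the cycle. Sinusoidal endothelial cells, which line the liver capillaries, and Kupffer cells, the resident macrophages, can renew themselves in place, while T cells divide when they are activated, and the conventional dendritic cells arise from dividing precursors.

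The promoters of the 5 genes are shown because the cells were chosen on their joint transcription. Each sequence is the 150 bases before the transcription start in RefSeq (build GRCm38.p6, while the deposited counts used GRCm39), read 5′ to 3′ on the gene's own strand. Capitals mark the letters of the cell cycle homology element, the CCAAT box or the E2F core, each searched on both strands. The homology element was searched as TTTGAA, and a second spelling of it as TTCGAA. The box was searched as CCAAT. The E2F core was searched first as TTGGCGC, and then also under a second spelling, TTCCCGC, and finally under the spelling TTCGCGC. One spelling of the homology element and one of the core begin alike, and each was counted under its own name. Mki67, a protein coating mitotic chromosomes, is at chr7:135716380-135716529 on the minus strand, and Top2a, the topoisomerase that untangles sister DNA, is at chr11:99024190-99024339 on the minus strand. Ube2c, an enzyme that tags mitotic proteins for destruction, is at chr2:164769779-164769928 on the plus strand. Birc5, a subunit of the chromosomal passenger complex, is at chr11:117849087-117849236 on the plus strand. Cdk1, the kinase that starts mitosis, is at chr10:69352913-69353062 on the minus strand.
Mki67: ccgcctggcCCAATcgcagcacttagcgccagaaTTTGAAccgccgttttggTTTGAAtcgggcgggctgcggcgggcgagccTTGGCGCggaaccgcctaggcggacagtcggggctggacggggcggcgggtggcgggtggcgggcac
Top2a: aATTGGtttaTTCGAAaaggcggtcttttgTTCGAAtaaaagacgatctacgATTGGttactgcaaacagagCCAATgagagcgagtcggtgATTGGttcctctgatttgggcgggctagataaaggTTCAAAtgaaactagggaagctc
Ube2c: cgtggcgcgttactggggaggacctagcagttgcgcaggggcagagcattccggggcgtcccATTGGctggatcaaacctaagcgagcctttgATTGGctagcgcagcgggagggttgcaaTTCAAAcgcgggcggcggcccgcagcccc
Birc5: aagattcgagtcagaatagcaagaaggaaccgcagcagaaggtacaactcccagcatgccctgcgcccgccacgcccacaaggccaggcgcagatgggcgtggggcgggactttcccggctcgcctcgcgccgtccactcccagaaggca
Cdk1: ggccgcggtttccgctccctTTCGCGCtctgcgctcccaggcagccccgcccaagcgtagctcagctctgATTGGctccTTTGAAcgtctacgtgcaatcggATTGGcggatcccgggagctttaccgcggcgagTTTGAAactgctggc

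Within the 250 bases before the start, 4 of the 5 genes held the cell cycle homology letters, against 17.1% of all 32851 promoter windows of 27025 genes. The CCAAT letters stood in 4 of the 5, against 33.8% of all windows, and the E2F core stood in Mki67 and Cdk1, against 6.69%. Birc5 held none of these letters in that window, which says nothing of the factors that act on it. Other mitotic genes varied: the homology letters stood in 6 of 8 matched genes of condensin and chromosome packing and 6 of 13 of the spindle motors, but in 1 of 10 of the centromere and kinetochore, 2 of 8 of the mitotic kinases and 1 of 9 of the cyclins. Of the replication licensing genes, whose products load and fire the replicative helicase, 5 of 11 held the E2F core and 9 of 11 the CCAAT box. A match is a description of the letters and not a bound site.

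Mki67 was detected in 95.3% of the cycling cells of S, 98.6% of HFD_sed and 93.2% of HFD_EXE, and was the most widely detected of the 5 genes in each library. Top2a was seen in 89.2%, 91.3% and 81.4%, and Cdk1, the least detected in S and HFD_EXE, in 81.1%, 80.4% and 71.2%. Levels are given as CPM, the summed UMIs of a gene for every 1000000 UMIs of the same cells. Over the cycling cells, Mki67 stood at 938 CPM in S, 881 in HFD_sed and 893 in HFD_EXE, and Cdk1 at 208, 215 and 137 CPM. Of the cycling cells, 200 held all 5 genes, 70 held 4 and 75 held 3. The 304 cells with exactly 2 of the genes, just outside the rule, had 946 CPM over the 29 S phase genes and 489 over the 46 genes of G2 and mitosis. The 75 cells with exactly 3, just inside it, had 2209 and 2155 CPM. Mki67 also had a UMI in 4.003%, 5.34% and 1.43% of the cells outside the rule, so a single gene marked more cells than the rule kept.

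Cycling cells were rich in RNA. Their median was 16346.5 UMIs in S, 13164.5 in HFD_sed and 14333 in HFD_EXE, against 6235, 4218 and 4951.5 in the other kept cells. Depth alone raises the chance of meeting the rule, so each cell with 2000 UMIs or more was also thinned at random to 2000. The Scrublet doublet caller marked 403, 328 and 295 kept cells, of which 2, 0 and 2 were cycling. Hepatocyte transcripts, which mark free RNA in cells other than hepatocytes, held 686 CPM of the cycling cells of S, 184 of HFD_sed and 363 of HFD_EXE. All other kept cells of the same library held 2188, 731 and 2323 CPM. Those include the cells classed as hepatocytes (83, 58 and 208, with 0 cycling), so the gap does not measure free RNA alone.

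The cycling share of all kept cells was 1.39% (1.18 to 1.64) in S, 1.25% (1.05 to 1.47) in HFD_sed and 0.564% (0.429 to 0.727) in HFD_EXE. S and HFD_sed had overlapping intervals, and HFD_EXE lay below both. As a log2 ratio of shares, HFD_sed over S was -0.16 (-0.51 to 0.18) and HFD_EXE over HFD_sed was -1.15 (-1.61 to -0.70). Thinned cells kept this order, with 0.930%, 0.747% and 0.226%, where the same cells before thinning gave 1.54%, 1.44% and 0.654%. The thinned ratio of HFD_EXE over HFD_sed was -1.73. The libraries differed in make-up, since endothelial cells were 43.6% of kept cells in S, 27.0% in HFD_sed and 61.8% in HFD_EXE, and T cells 9.81%, 25.6% and 7.08%. With the share within each class kept and the make-up of S applied to every library, the total was 1.39%, 1.02% and 0.794%. The gap between HFD_sed and HFD_EXE was thus smaller at a common make-up, and HFD_EXE was still the lowest.

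Each cell was given a class from panels of marker genes, by the highest mean level over the panel among those with at least 3 markers detected. Among the abundant classes T cells cycled most often in S and HFD_sed, at 4.42% in S (46 of 1041; 3.25 to 5.85), 1.83% in HFD_sed (52 of 2836; 1.37 to 2.40) and 1.21% in HFD_EXE (9 of 741; 0.557 to 2.29), where Kupffer cells stood above them. The T cell share in S lay above both HFD libraries, and the intervals of the HFD libraries overlapped. Endothelial cells had the opposite order between S and HFD_sed, with 0.433% in S (20 of 4624; 0.264 to 0.667), 1.04% in HFD_sed (31 of 2992; 0.705 to 1.47) and 0.186% in HFD_EXE (12 of 6465; 0.0959 to 0.324). Kupffer cells cycled at 1.72% in S (42 of 2439; 1.24 to 2.32), 0.496% in HFD_sed (4 of 807; 0.135 to 1.26) and 1.52% in HFD_EXE (15 of 986; 0.854 to 2.50). Here HFD_sed was the lowest, on 4 cells.

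**Figure D1:**
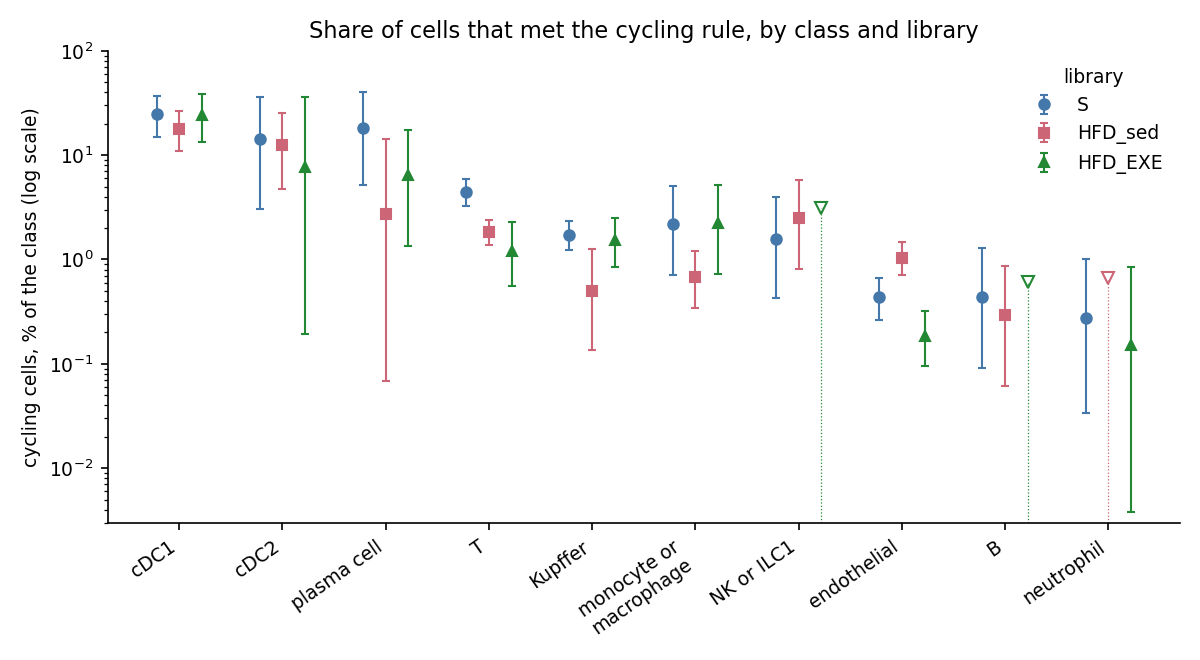
Percent of the cells of each class that met the cycling rule (vertical axis, log scale) in the libraries S, HFD_sed and HFD_EXE, with bars for the 95% counting interval and a downward triangle for the limit that a count of 0 allows. T cells stood highest in S (4.42%), endothelial cells in HFD_sed (1.04%), and Kupffer cells lowest in HFD_sed (0.496%).

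For T cells the log2 ratio of shares was -1.27 (-1.87 to -0.66) for HFD_sed over S. It depended on the rule, because with at least 2 of the 5 genes asked for it was -0.43 (-0.90 to 0.05). Thinned T cells gave 3.10%, 1.21% and 0.863%. For endothelial cells HFD_sed over S was 1.26 (0.40 to 2.15) and HFD_EXE over HFD_sed was -2.48 (-3.58 to -1.48). Thinning gave 0.330%, 0.574% and 0.0716%, and the thinned ratio of HFD_sed over S was 0.80 (-0.33 to 1.94), whose interval takes in no difference. For Kupffer cells HFD_sed over S was -1.80 (-3.74 to -0.33). Thinning gave Kupffer shares of 0.860%, 0.328% and 0.265%, which put HFD_EXE lowest, and a ratio of HFD_sed over S of -1.39 (-4.54 to 0.67), whose interval takes in no difference. The Kupffer ratio of HFD_EXE over HFD_sed was 1.62 (-0.03 to 3.67), and it was -0.31 when thinned and -0.10 with at least 2 of the 5 genes, so its direction was not settled.

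Neutrophils, which leave the cycle before they enter blood, served as the background of the rule. In them 2 of 720 cells met it in S (0.278%), 0 of 447 in HFD_sed (a count of 0 allows up to 0.671%) and 1 of 661 in HFD_EXE (0.151%). Their exact intervals reached up to 1% in S, 0.822% in HFD_sed and 0.84% in HFD_EXE. The endothelial shares of S and HFD_EXE, the Kupffer share of HFD_sed and the B cell shares were within what this background allows. The endothelial share of HFD_sed and the T cell shares stood above it. Yet the intervals of the endothelial cells of HFD_sed and the T cells of HFD_EXE reached down into it. The background rests on 2, 0 and 1 cells, so a share within it is not shown to be background. The 1 cell of HFD_EXE held 27196 UMIs, with 132 of the S phase genes and 37 of the G2 and mitosis genes. Neutrophils outside the cycle were shallower, with medians of 3051, 2530 and 2991.5 UMIs against 7016, 5760 and 5559 in endothelial cells. Thinned neutrophils gave 0.145% in S, 0 of 375 in HFD_sed and 0 of 619 in HFD_EXE. Their exact intervals reached up to 0.804%, 0.979% and 0.594%. At equal depth the endothelial share of HFD_sed, 0.574% (0.328 to 0.931), was thus within what the background allows, and so stood above it only before thinning. The thinned Kupffer share of HFD_EXE, 0.265%, was within it too. The thinned intervals of the T cells of HFD_sed (0.815 to 1.72) and HFD_EXE (0.317 to 1.87) reached down into it. So did that of the Kupffer cells of S (0.511 to 1.36). B cells, found by Cd79a and its partners, had 3 of 680 cycling in S (0.441%), 3 of 1011 in HFD_sed (0.297%) and 0 of 495 in HFD_EXE, which allows up to 0.606%.

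The highest shares belonged to small classes. Type 1 conventional dendritic cells (cDC1), which take up dead cells and present their antigens to CD8 T cells, cycled at 24.6% in S (16 of 65; 14.8 to 36.9), 17.8% in HFD_sed (19 of 107; 11.0 to 26.3) and 24.5% in HFD_EXE (12 of 49; 13.3 to 38.9). The intervals overlapped widely, so no difference among the libraries was resolved. After thinning the shares were 12.3%, 6.60% and 10.2%. Cells classed as type 2 conventional dendritic cells had 3 of 21, 6 of 48 and 1 of 13 cycling. A second panel scored close to the first in 2, 6 and 1 of these cycling cells. The 6 of HFD_sed all held Flt3, Kmo and Ffar2, but Cd209a was in 3 and Clec10a and Mgl2 in 0. Their class is therefore uncertain. Plasma cells, the antibody-secreting end stage of B cells, had 4 of 22, 1 of 37 and 3 of 47. Monocytes and macrophages other than Kupffer cells had 5 of 228 cycling in S, 11 of 1616 in HFD_sed and 5 of 224 in HFD_EXE. Natural killer or type 1 innate lymphoid cells had 4 of 254, 5 of 200 and 0 of 97, the last of which allows up to 3.09%. Plasmacytoid dendritic cells had 2 of 117 cycling in HFD_sed and none among 83 in S and 114 in HFD_EXE. All myeloid cells other than Kupffer cells together gave 2.42%, 1.67% and 1.79%, with a log2 ratio of -0.53 (-1.28 to 0.23) for HFD_sed over S and 0.10 (-0.77 to 0.93) for HFD_EXE over HFD_sed. The remaining cycling cells, beside the 3 neutrophils, were 2 neutrophil precursors, 2 erythroid cells, 1 mesothelial cell and 3 cells with no class.

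The make-up of the cycling population therefore differed between libraries. T cells were 31.1% of it in S, 37.7% in HFD_sed and 15.3% in HFD_EXE. Kupffer cells were 28.4%, 2.90% and 25.4%, endothelial cells 13.5%, 22.5% and 20.3%, and cDC1 10.8%, 13.8% and 20.3%. The cDC1 were over-represented everywhere, as they were 0.612%, 0.967% and 0.468% of all kept cells. Endothelial cells were under-represented in S and HFD_EXE, where they were 43.6% and 61.8% of all kept cells. For 55 of the 345 cycling cells (19, 29 and 7) a second panel scored close to the first, and their class was the least certain.

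**Figure D2:**
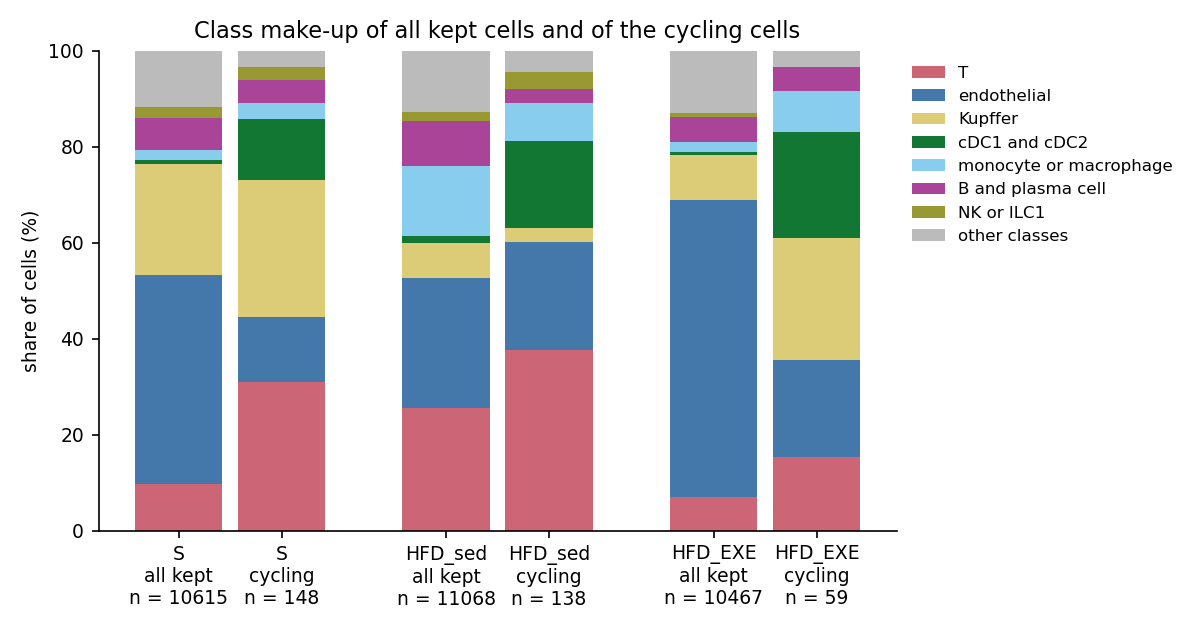
Make-up of the cycling cells beside that of all kept cells in each library, as percent of cells (vertical axis), with conventional dendritic cells drawn together and B cells with plasma cells. Kupffer cells were 28.4% and 25.4% of cycling cells in S and HFD_EXE but 2.90% in HFD_sed, and T cells were the largest class in S and HFD_sed.

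Single lineage genes overlapped within cells. Cd3e, a chain of the T cell receptor complex, had a UMI in 55, 59 and 14 cycling cells, and Ptprb, an endothelial phosphatase, in 87, 61 and 47. Clec4f, a Kupffer cell lectin, was seen in 133 of 148 cycling cells of S, 38 of 138 of HFD_sed and 35 of 59 of HFD_EXE. Lyz2, the lysozyme of myeloid cells, was seen in 98, 104 and 42, and Cd79a, a chain of the B cell receptor, in 11, 12 and 4. More than 1 of these 5 genes stood in 138, 98 and 53 cycling cells, and exactly 1 in 10, 37 and 6. T and B cells outside the cycle should lack Clec4f, yet 53.3%, 11.5% and 18.4% of them had a UMI of it, at a median of 4906.5, 3166.5 and 4178 UMIs. Cd3e was in 3.34%, 5.79% and 2.30% of endothelial and Kupffer cells outside the cycle.

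Cycling T cells differed in subset between libraries. Cells with Cd8a or Cd8b1 and no Cd4 were 17 of 46 cycling T cells in S (37.0%), 36 of 52 in HFD_sed (69.2%) and 1 of 9 in HFD_EXE (11.1%). The same subset was 35.4%, 63.6% and 32.0% of all T cells. Before thinning, its share of the cycling T cells was thus near its share of all T cells in S and HFD_sed. Thinned, it was 18.8% of cycling (7.21 to 36.4) and 30.1% of all T cells in S. In HFD_sed it was then 76.7% (57.7 to 90.1) and 62.1%. Each thinned interval took in the share of all T cells. In HFD_sed cells with Cd4 and no Cd8 gene were near as well, at 15.4% of cycling T cells and 15.7% of all T cells. So were its cells with Foxp3, at 1.92% and 2.29%. In S cells with Foxp3 were 15.2% of cycling T cells and 4.03% of all T cells. When thinned, these cells of S were 3.1% (1 of 32) and 2.91%, so that gap was not seen at equal depth. Of the cells with Cd8a or Cd8b1 and no Cd4, 4.62% cycled in S (17 of 368), 1.997% in HFD_sed (36 of 1803) and 0.422% in HFD_EXE (1 of 237). Of cells with Cd4 and no Cd8 gene, 6.12% cycled in S (17 of 278), 1.80% in HFD_sed (8 of 444) and 2.87% in HFD_EXE (5 of 174). Both subsets were highest in S. The intervals of the Cd8 cells of S (2.71 to 7.29) and HFD_sed (1.40 to 2.75) overlapped slightly. Those of the Cd4 cells of S (3.602 to 9.61) and HFD_EXE (0.939 to 6.58) overlapped widely, and the S share lay inside the HFD_EXE interval. Thinned to equal depth, with the subset genes read from the thinned cells too, 6 of 310 Cd8 cells cycled in S, 23 of 1546 in HFD_sed and 0 of 197 in HFD_EXE, and 4 of 146, 1 of 294 and 0 of 85 Cd4 cells. The thinned Cd8 shares of S (1.94%; 0.714 to 4.16) and HFD_sed (1.49%; 0.945 to 2.22) were not told apart. Among cells with Foxp3, the factor of regulatory T cells, 7 of 42 cycled in S, 1 of 65 in HFD_sed and 1 of 11 in HFD_EXE. When thinned, 1 of 30, 0 of 47 and 0 of 5 did.

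The state genes of cycling T cells differed between libraries too. Gzmk, a granzyme of effector memory CD8 T cells, stood at 20.9 CPM in cycling T cells of S, 195 in HFD_sed and 0 in HFD_EXE, where a count of 0 allows up to 21.5. It had a UMI in 7 of 46, 36 of 52 and 0 of 9 cells. Tox, a factor of chronically stimulated T cells, stood at 41.8 CPM (18 of 46 cells), 214 CPM (39 of 52) and 136 CPM (5 of 9). Pdcd1, which encodes the checkpoint receptor PD-1, stood at 6.14 CPM (4 of 46 cells), 52.0 CPM (15 of 52) and 28.6 CPM (2 of 9). Each of these genes was highest in HFD_sed, although for Tox and Pdcd1 its interval overlapped that of HFD_EXE. T cells outside the cycle also had HFD_sed highest for Gzmk (9.62, 135 and 29.9 CPM), Tox (73.5, 194 and 71.7 CPM) and Pdcd1 (6.36, 59.7 and 22.9 CPM), so the cycling cells shared this feature with their class.

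Genes of resting and regulatory T cells ran the other way. Tcf7, a factor of naive and memory T cells, stood at 195 CPM in cycling T cells of S, 52.0 in HFD_sed and 236 in HFD_EXE. Its levels outside the cycle were 329, 242 and 322 CPM, above the cycling cells in each library. Foxp3 stood at 36.9, 1.49 and 7.16 CPM, from 7 cells in S and 1 in each of the others. Il2ra, the high-affinity interleukin-2 receptor chain, stood at 74.9, 16.3 and 14.3 CPM. Ccr7, which guides T cells to lymph nodes, stood at 61.4 CPM, 14.9 CPM and 0 in cycling T cells and at 223, 112 and 195 CPM in the others.

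**Figure D3:**
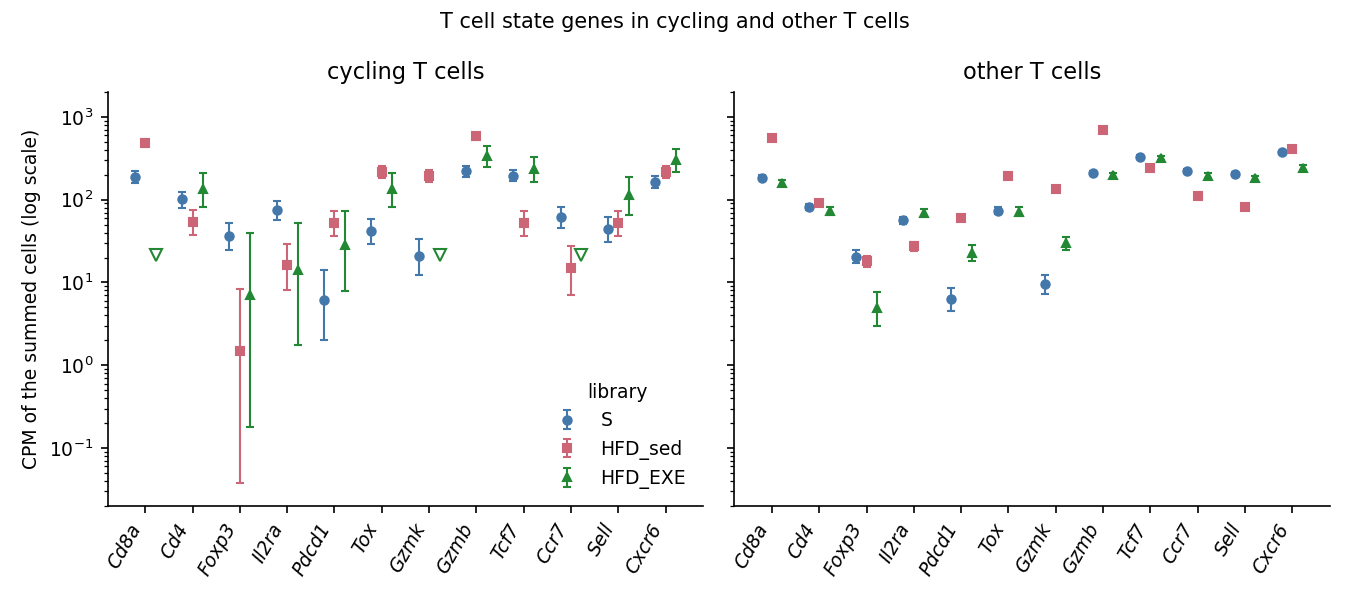
Level of T cell state genes in cycling T cells (left) and other T cells (right) of each library, in CPM on a log axis, with bars for the 95% counting interval and a downward triangle for the limit that a count of 0 allows. Among cycling T cells Gzmk, Tox and Pdcd1 stood highest in HFD_sed, and Foxp3 and Il2ra in S.

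Across the 7488 genes measured between cycling T cells of HFD_sed and S, a gene was called where the levels differed at least 1.5-fold and the interval excluded no difference. By this rule 8.27% of all genes were called higher in HFD_sed and 6.04% lower. Of 17 measured T cell state genes, 7 were called higher and 5 lower, and the list's median log2 ratio was 0.51 beside 0.05 for all genes. Among them Gzmk was at a log2 ratio of 3.22 (2.49 to 4.04), Pdcd1 at 3.08, Tox at 2.36 and Gzmb, a granzyme of cytotoxic cells, at 1.41. Foxp3 was at -4.63, Il2ra at -2.20, Ccr7 at -2.05 and Tcf7 at -1.91. T cells with a Cd8 gene and no Cd4 were a larger part of cycling T cells in HFD_sed, as given above, and their part in these ratios was not tested.

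The division machinery of cycling T cells was close between S and HFD_sed. None of 13 measured licensing genes, 15 spindle motor and cytokinesis genes or 10 condensin genes was called, with median log2 ratios of 0.15, -0.02 and -0.13. Of the 11 mitotic kinase genes only Plk1, the kinase of spindle assembly, was called, at 93.7 CPM in HFD_sed and 156 in S. Calls among the cyclins and their partners went both ways. Cdk6, a kinase of the G1 phase, stood at 178 CPM in HFD_sed and 51.6 in S (log2 ratio 1.79), while Ccnb2, a mitotic cyclin, stood at 202 and 319 CPM (-0.66), and Cdc25b, the phosphatase that starts mitosis, at 104 and 222 CPM (-1.10). Among inhibitors of the kinases, Cdkn2a, which restrains Cdk4 and Cdk6, stood at 56.5 and 6.14 CPM (3.20), from 17 and 4 cells, and Cdkn2d at 80.3 and 163 CPM (-1.03). For Cdkn2a, 11 of the 38 UMIs of HFD_sed came from 1 cell.

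Some of the widest differences in cycling T cells came from a single cell, and the intervals do not cover that spread. The genes with the widest call above were Ptgs2, Cxcl2 and Lyz2, and those below were Ccr9, Cmah and Furin. Ptgs2 had 60 UMIs in HFD_sed, of which 56 were in 1 cell, and none in S. The same cell held 57 of the 62 Cxcl2 UMIs. For Lyz2, 149 of the 213 UMIs in HFD_sed came from another cell, which held 73689 UMIs. That cell also gave 28.9% of the Cdkn2a and 13.2% of the Tox UMIs of the cycling T cells of HFD_sed. The deepest of these cells held 75080 UMIs, against a median of 8975, so such cells weigh most in levels summed over them. The lower genes were spread more widely in S, where Ccr9, a gut-homing receptor, stood at 167 CPM over 10 cells, Cmah at 76.2 CPM over 20 and Furin at 134 CPM over 26. In HFD_sed they stood at 17.8, 7.43 and 17.8 CPM. Dissociation response genes moved as well: 4 of 8 measured were called higher in HFD_sed (Fos, Fosb, Jun and Egr1), none lower, and the median of the list was 0.60. Their part in the result was not tested.

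Cycling endothelial cells carried sinusoidal genes at lower relative levels than their resting neighbours. Kdr, the receptor for vascular endothelial growth factor, stood at 1471 CPM in cycling endothelial cells of S, 1327 in HFD_sed and 1760 in HFD_EXE, and at 3235, 2509 and 3256 CPM in the others. Stab2, a scavenger receptor of sinusoidal endothelium, stood at 551, 463 and 537 CPM, against 1106, 678 and 1032. Wnt2, a signal from endothelium to hepatocytes, stood at 224, 65.8 and 177 CPM, against 466, 125 and 416. All 3 genes were lower in cycling cells of every library, and CPM is a share of the cell's own RNA, which was larger in cycling cells. Of the endothelial state genes measured, 9 of 14 were called lower in cycling cells of S, 6 of 15 in HFD_sed and 6 of 14 in HFD_EXE, where 5.99%, 7.46% and 3.37% of all genes were. The rule chose the same cells, so these counts are a description.

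Esm1 and Apln, both known from sprouting tip cells, set the cycling endothelium of HFD_sed apart. Esm1 stood at 14.6 CPM in S (1 of 20 cells), 369 CPM in HFD_sed (20 of 31) and 81.0 CPM in HFD_EXE (2 of 12). Apln stood at 2.91 CPM in S (1 of 20 cells), 39.5 CPM in HFD_sed (11 of 31) and 0 in HFD_EXE, which allows up to 22.1 CPM. Esm1 was as high in the resting endothelial cells of HFD_sed (458 CPM, against 6.85 and 11.6 in S and HFD_EXE), so this difference ran through the whole class. Apln was higher in the cycling cells of HFD_sed than in its other endothelial cells, at 10.9 CPM.

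T cell transcripts were more frequent in cycling than in other endothelial cells, before any thinning. Cycling endothelial cells were also deeper, with medians of 17393, 12748 and 12707.5 UMIs against 7016, 5760 and 5559. The counts of T panel and Lyz2 UMIs given here rise with depth, and its part was not tested. At least 3 UMIs over the 7 T panel genes stood in 4 of 20 cycling endothelial cells of S, 5 of 31 of HFD_sed and 3 of 12 of HFD_EXE, against 1.95%, 4.32% and 1.33% of the others. Among cycling Kupffer cells this held for 2 of 42, 0 of 4 and 1 of 15. Leaving these cells out gave an endothelial log2 ratio of shares of 1.36 for HFD_sed over S and -2.69 for HFD_EXE over HFD_sed, and a Kupffer ratio of -1.69 for HFD_sed over S. All 3 kept the direction they had with these cells in. Lyz2 had a UMI in 12 of 20 cycling endothelial cells of S, 24 of 31 of HFD_sed and 6 of 12 of HFD_EXE. It was in 32.1%, 60.5% and 24.1% of the others. Single cycling endothelial cells of HFD_sed held 136, 106 and 93 Lyz2 UMIs, and a cell of S held 36. Cells with at least 2 UMIs in more than 1 of the 5 lineage genes were also left out. The endothelial ratio of HFD_sed over S was then 1.52 (0.12 to 3.07), from 14 and 7 cycling cells.

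Clec4f, Timd4 and Cd5l, all known from resident Kupffer cells, are among the panel genes that assigned this class, so their presence restates the assignment. In cycling Kupffer cells Clec4f stood at 3916 CPM in S, 3643 in HFD_sed and 3123 in HFD_EXE, and was present in each of the 42, 4 and 15 cells. Timd4, a receptor for dying cells that marks embryonically derived Kupffer cells, was present in 37 of 42, 1 of 4 and 14 of 15, at 424, 83.3 and 261 CPM. Cd5l, a secreted scavenger protein, stood at 4852, 3227 and 4365 CPM, against 6636, 5401 and 6129 in Kupffer cells outside the cycle. The Kupffer cells outside the cycle in HFD_sed were also lowest in Timd4, at 258 CPM against 593 in S and 495 in HFD_EXE. Monocyte genes were near the floor in cycling Kupffer cells. Ccr2, the receptor that brings monocytes into tissue, had a UMI in 5 of 42, 0 of 4 and 1 of 15, and Ly6c2 in 4, 0 and 2. Mmp12, an elastase of macrophages, stood at 15.7, 20.8 and 36.3 CPM in cycling cells, although it reached 563 CPM in the other Kupffer cells of HFD_sed. Of the macrophage state genes measured, 2 of 13, 4 of 14 and 4 of 13 were called lower in cycling than in other Kupffer cells and none higher, where 3.61%, 1.25% and 2.46% of all genes were lower.

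**Figure D4:**
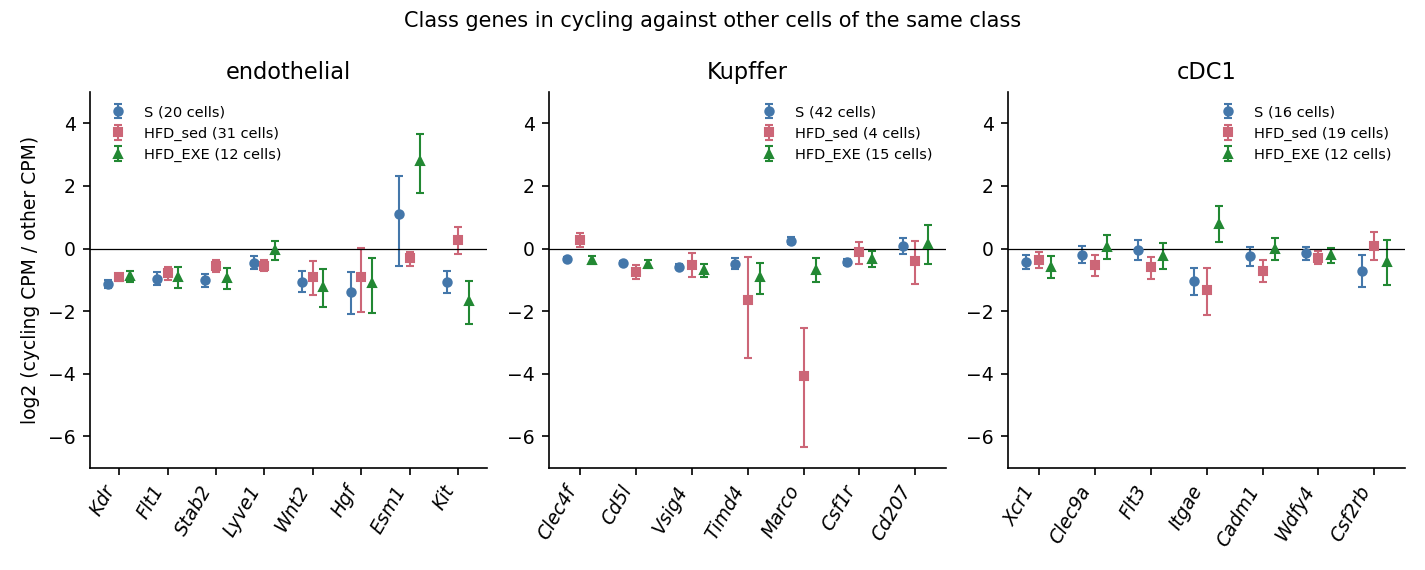
The log2 ratio of CPM in cycling cells over the other cells of the same class and library (vertical axis) for identity genes of endothelial, Kupffer and cDC1 cells, with bars for the 95% counting interval and a line at no difference. Kdr and Stab2 lie below the line in each library (Kdr at -1.14, -0.92 and -0.89 in S, HFD_sed and HFD_EXE), and the Kupffer values of HFD_sed rest on 4 cells.

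For cDC1 too, Xcr1 and Flt3 are panel genes that assigned the class, so their presence in cycling cDC1 was fixed by the assignment. Xcr1, the chemokine receptor of this lineage, stood at 539 CPM in S, 386 in HFD_sed and 326 in HFD_EXE, in 14 of 16, 16 of 19 and 11 of 12 cells, and at 725, 494 and 488 CPM in the other cDC1. Flt3, the growth factor receptor on which dendritic cells depend, stood at 305, 202 and 277 CPM, against 316, 306 and 325. Ccr7, which marks mature dendritic cells on their way to lymph nodes, stood at 4.77 CPM in S, 182 in HFD_sed and 0 in HFD_EXE, which allows up to 11.4 CPM, while the other cDC1 had 131, 192 and 141. The HFD_sed value came from 4 of 19 cells. Ccr7 was thus low in cycling cDC1 of S and HFD_EXE and in most of those of HFD_sed.

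Cycling monocytes and macrophages were few. Lyz2 stood in them at 2923, 4134 and 2342 CPM, and at 9942, 11623 and 8821 CPM in the others. Fn1 and Ly6c2, genes of classical monocytes, had no UMI in the 5 cycling cells of S, where the other cells held 852 and 392 CPM. In HFD_sed Fn1 was in 5 and Ly6c2 in 6 of the 11 cycling cells. Some of the 5 cells of HFD_EXE held few cycle transcripts. Those of 11094, 13376 and 13401 UMIs held 3, 7 and 6 UMIs of the S phase genes. They held 5, 15 and 5 UMIs of the G2 and mitosis genes. Monocytes and macrophages of HFD_EXE outside the rule had 356 and 284 CPM of these lists.

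The cycle genes outside the rule stood higher in cycling cells of each class, as the choice of cells fixes. In T cells of S, 13 of 13 measured licensing genes, 12 of 12 kinetochore genes and 15 of 15 spindle genes were called higher in cycling cells, where 16.4% of all genes were. In HFD_sed the counts were 13 of 13, 12 of 12 and 15 of 15, beside 15.6%, and in HFD_EXE 5 of 8, 9 of 9 and 11 of 11, beside 10.8%. Endothelial cells had 12 of 12, 12 of 12 and 9 of 9 kinetochore genes called higher in S, HFD_sed and HFD_EXE, beside 13.6%, 12.3% and 8.72% of all genes. Kupffer cells had 12 of 12, 3 of 4 and 4 of 4, beside 9.65%, 3.53% and 6.69%, and cDC1 had 11 of 11, 12 of 12 and 8 of 8, beside 13.2%, 12.7% and 7.09%. Licensing genes were less uniform, with 0 of 10 measured called in the 4 Kupffer cells of HFD_sed and 3 of 8 in the cDC1 of HFD_EXE. Pclaf, a partner of the replication clamp that is on none of the lists, stood at 914, 818 and 666 CPM in cycling T cells of S, HFD_sed and HFD_EXE and at 4.402, 6.33 and 3.63 CPM in the others. Cenpf, a kinetochore protein, stood at 536, 525 and 1002 CPM and at 1.63, 1.29 and 0.519 CPM. Taking the 15 genes that separated cycling from other cells most firmly in all 3 libraries, for T, endothelial, Kupffer and cDC1 cells, gave 40 genes. Of these, 7 were shared by at least 3 classes (Cenpf, Hmmr, H2ac24, Ccna2, Pclaf, Nusap1 and Cenpe), 27 were in the top of 1 class and none in all 4. The Kupffer list is limited by the 4 cells of HFD_sed. Dissociation response genes went the other way, with 7, 8 and 7 of 11 called lower in cycling than in other T cells, where 10.9%, 10.9% and 3.82% of all genes were, and with 5, 5 and 1 of 11 lower in cDC1, where 5.35%, 5.2% and 4.52% were.

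Cycling cells were weighted toward G2 and mitosis, which the 5 genes of the rule favour. The 46 genes of G2 and mitosis had 2.34 UMIs for each UMI of the 29 S phase genes in cycling cells of S, 1.81 in HFD_sed and 2.07 in HFD_EXE. Other cells had 0.908, 0.818 and 0.831. Single cells were spread widely, and in S the G2 and mitosis genes held between 2.09 and 192 of every 10000 UMIs of a cycling cell, with a median of 60.7. In HFD_sed they ranged from 1.22 to 192 (median 63.3) and in HFD_EXE from 2.16 to 201 (median 45.9). The medians were thus close beside the range within any library.

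By class, endothelial cells had 2.89 (2.69 to 3.12) in S, 1.78 (1.67 to 1.89) in HFD_sed and 2.96 (2.62 to 3.34) in HFD_EXE. The lower value of HFD_sed went with more S phase RNA, at 3440 CPM against 2791 and 2666, and less G2 and mitosis RNA, at 6123 CPM against 8077 and 7879. Thinned endothelial cells kept this order, with 3.14, 2.10 and 3.58. T cells had 1.99, 1.71 and 3.09, and their thinned values were 2.04, 2.01 and 3.04, so S and HFD_sed were close at equal depth. The cDC1 had 4.52 (4.13 to 4.94) in S, 1.70 (1.59 to 1.82) in HFD_sed and 2.04 (1.82 to 2.29) in HFD_EXE, and 4.27, 1.40 and 1.95 when thinned. Their S phase genes stood at 1416, 3177 and 1713 CPM. Kupffer cells had 2.53 in S, 9.57 (5.51 to 17.98) in HFD_sed, from 4 cells, and 2.18 in HFD_EXE. Of the 134 G2 and mitosis UMIs in HFD_sed, 36 and 84 came from the cells of 4666 and 6348 UMIs. The cells of 16416 and 20602 UMIs held 2 and 12. The interval does not cover this spread between cells. Plasma cells were among the lowest, with 0.854 in S and 0.871 in HFD_EXE, from 4 and 3 cells. Low values also came from HFD_sed, with 1.02 (0.884 to 1.18) in 5 natural killer or type 1 innate lymphoid cells. The 6 cells classed as type 2 conventional dendritic cells, whose class is uncertain, had 1.16 (1.001 to 1.34).

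**Figure D5:**
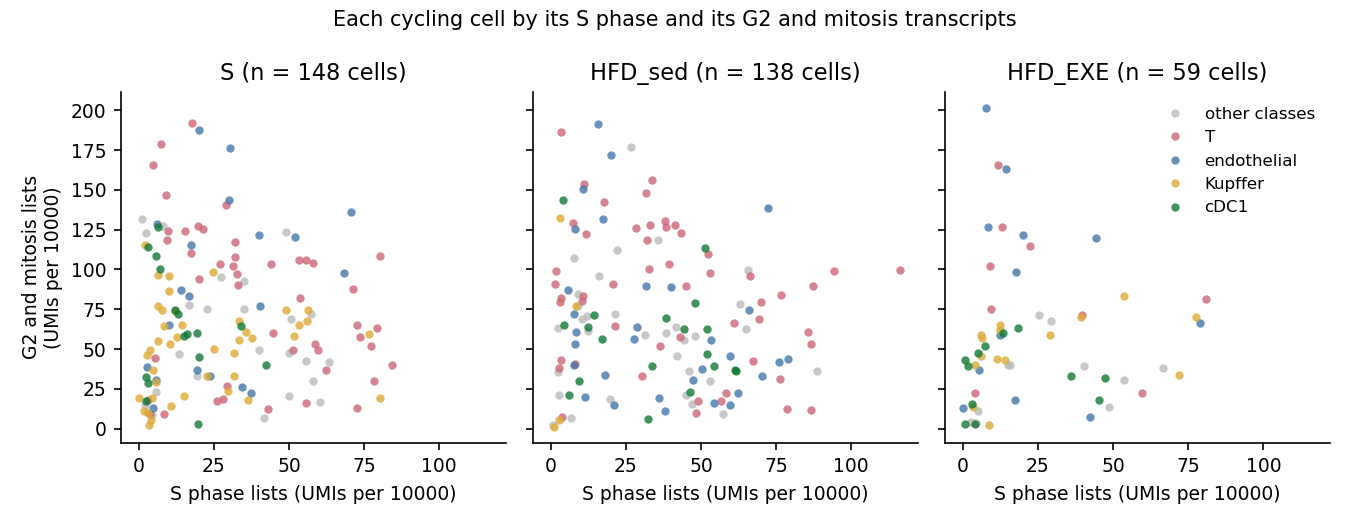
Each point is 1 cycling cell, placed by its UMIs of the 29 S phase genes (horizontal axis) and the 46 G2 and mitosis genes (vertical axis), both per 10000 UMIs, with 1 panel per library and a colour for T, endothelial, Kupffer, cDC1 and all other cells. Cells lie along both axes in each library, and the G2 and mitosis medians are 60.7 in S, 63.3 in HFD_sed and 45.9 in HFD_EXE.

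The rule left out some cells that held licensing genes, which rise early in the cycle. Detection of these genes also depends on depth, and the counts below were not thinned. At least 5 of the 14 licensing genes were detected in 64.2% of cycling cells of S, 68.1% of HFD_sed and 47.5% of HFD_EXE, and in 0.936%, 1.04% and 0.673% of the cells that the rule left out. The latter were 98, 114 and 70 cells. Of these 35, 25 and 20 were T cells, and 27, 39 and 24 were endothelial cells. Kupffer cells were 21, 11 and 10 of them, and other myeloid cells 10, 32 and 12.

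Between all cycling cells of HFD_sed and S, 7.04% of 11365 genes were called higher in HFD_sed and 9.63% lower. The lineage make-up moved with these differences, and its part in them was not tested. Of the regulators of the cycle programme (E2F, FoxM1 and B-Myb), 3 of 11 measured were called higher and none lower: E2f8 at 82.3 CPM in HFD_sed and 40.5 in S, Mybl2 at 39.3 and 19.9, and Tfdp1, the partner of E2F proteins, at 79.9 and 40.9. Cyclins went both ways, with Ccne1, Ccne2, Ccnd1 and Cdk6 higher and Ccnb2 and Cdc25b lower, of 14. Ccne2, the cyclin of the entry into S phase, stood at 44.9 and 21.0 CPM, and Ccnb2 at 152 and 239. In DNA synthesis, 2 of 15 were higher and none lower, among them Dut, which keeps uracil out of DNA, at 362 and 195 CPM. No mitotic kinase, kinetochore or condensin gene was called, with medians of -0.22, -0.05 and 0.13 beside 0.00 for all genes.

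Between HFD_EXE and HFD_sed, 8.95% of 10187 genes were called higher in the cycling cells of HFD_EXE and 8.69% lower, and the median over all genes was -0.04. Cycle genes were called lower or not at all, apart from 1 inhibitor, Cdkn1c, which was higher. Lower were 3 of 14 licensing genes (Mcm2, Mcm7 and Cdc45), 4 of 15 DNA synthesis genes (Dut, Uhrf1, Tyms and Rfc4), 5 of 14 cyclins and partners and 5 of 11 regulators. Dut stood at 130 CPM in HFD_EXE and 362 in HFD_sed, Mcm2, a helicase subunit, at 61.4 and 104, and Ccnd2, a G1 cyclin, at 84.9 and 198. Of the late genes, 3 of 15 spindle genes (Kif11, Kif20b and Tpx2) and 2 of 12 kinetochore genes (Spc24 and Spc25) were lower, and no condensin gene was called. T cells were 37.7% of the cycling cells in HFD_sed and 15.3% in HFD_EXE, and the part of this in the calls was not tested.

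The widest calls over all cycling cells named lineages and single cells. Higher in HFD_sed than in S were Elane and Prtn3, proteases of neutrophil precursors, and the chemokine Ccl22. Elane had UMIs in 2 cells, with 99.6% of them from 1, and for Prtn3 90.4% came from 1 of 5 cells. For Ccl22, 65.2% came from 1 of 4 cells. Lower in HFD_sed were Marco, a scavenger receptor of Kupffer cells (250 CPM in S and 8.98 in HFD_sed), Fcna (396 and 17.97) and Dcn, a matrix protein of fibroblasts (144 and 3.31, with 53.0% of the UMIs of S from 1 cell). Gja4, Xlr and Mup20 were higher in HFD_EXE than in HFD_sed, and Elane, Mpo and Gzma lower. Of the Mpo UMIs in HFD_sed, 97.5% came from 1 cell, while Gzma was spread over 37 cells of HFD_sed (316 CPM) and 5 of HFD_EXE (5.58 CPM).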

How the data were processed

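Single-cell 3′ RNA-seq of liver non-parenchymal cells from 3 libraries was analysed. Per the submitters' processing notes, the reads were processed with Cell Ranger 6.1.2, and GRCm39 was the genome build. The deposited matrices give UMI counts for each gene and cell barcode, as whole numbers. They list 11660, 11752 and 11280 barcodes for S, HFD_sed and HFD_EXE, more than the capture size that the labels' protocols state. After the filters of the cycling rule (500 UMIs, 300 genes, under 15% mitochondrial UMIs) 91.0%, 94.2% and 92.8% of the barcodes remained.

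Cells were given 1 of 18 panel classes by the highest mean log of 1 plus counts per 10000, with at least 3 markers detected. Levels in CPM are UMIs summed over the cells of a class in 1 library, for every 1000000 UMIs of those cells. Shares have exact Clopper-Pearson intervals, levels Poisson intervals and ratios conditional binomial intervals. A gene was called at a ratio of at least 1.5 with an interval excluding 1 and at least 20 UMIs over both groups. A count of 0 was given a limit of 3 counts. Doublets were scored with Scrublet (Scanpy 1.11.5), marked at a common threshold of 0.219 and not removed. Thinning used 2000 UMIs. TMM factors came from edgeR 4.0.16 in R 4.3.3. Python 3.11.15, NumPy 2.4.6, pandas 2.3.3 and SciPy 1.17.1 were used, and the ratio code was tested on simulated data.

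The cycling rule, the panels and the gene lists were chosen with earlier results of these data known. Named genes were the genes of the rule, list members with the firmest calls, and the 3 genes per direction of at least 50 CPM whose interval bound lay farthest from no difference. That last choice was planned for classes with at least 50 cycling cells in both libraries, which no class had, so it was made over all cycling cells and, at 40 cells, over T cells, after seeing the data. State genes of each class were described from their lists, and Pclaf by its rank.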

Additional observations from a re-analysis of the deposited data

Results flagged for a closer look

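The cycling share moved in opposite directions between HFD_sed and S in different lineages. The log2 ratio of shares was -1.27 (95% counting interval -1.87 to -0.66) in T cells and -1.80 (-3.74 to -0.33) in Kupffer cells, and it was 1.26 (0.40 to 2.15) in endothelial cells. Each of the 3 had an alternative whose interval took in no difference: the T cell ratio was -0.43 (-0.90 to 0.05) with at least 2 of the 5 cycle genes asked for, and thinned to 2000 UMIs the Kupffer ratio was -1.39 (-4.54 to 0.67) and the endothelial ratio 0.80 (-0.33 to 1.94). With 1 library per group the difference between lineages was not tested.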

How the results depend on the processing

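Of 113 alternative values for 16 results, 96 stayed within the counting interval of the reported value (for counts of list genes, within 1.5 times it), 16 moved and 1 whose interval excluded no difference reversed. Of the 89 alternatives for ratios of shares, 12 changed sign, and in 6 an interval that had excluded no difference took it in. With single lineage genes in place of panels, the log2 ratio of HFD_sed over S was -0.28 in T cells, 1.79 in other myeloid cells and, reversed, 0.79 in Kupffer cells (1 of 121 cells against 2 of 418). HFD_EXE over HFD_sed was then -4.71 in endothelial and -1.16 in other myeloid cells, and it was 0.10 in T cells, where the reported value is -0.59. The other myeloid ratio of HFD_EXE over HFD_sed, reported as 0.10, was -0.02 with at least 2 and -0.28 with at least 4 of the 5 cycle genes, -0.28 when thinned and -0.26 without cells of more than 1 lineage gene. Without cells holding at least 2 UMIs in more than 1 lineage gene, HFD_sed over S was 0.40 over all cells and 1.03 in other myeloid cells, and HFD_EXE over HFD_sed was -1.61 over all cells. That filter removes most Kupffer cells, which carry both Clec4f and Lyz2, so Kupffer cells gave no value. With at least 2 of the 5 cycle genes, the T cell ratio of HFD_sed over S was -0.43 and the Kupffer ratio of HFD_EXE over HFD_sed -0.10. Thinned to 2000 UMIs, HFD_EXE over HFD_sed was -1.73 over all cells and -0.31 in Kupffer cells. Thinning also lowered the number of list genes called: over all cycling cells from 38 to 20 higher and from 25 to 11 lower (HFD_sed over S), from 24 to 11 higher (HFD_EXE over HFD_sed), and in cycling T cells from 23 to 6 higher and from 21 to 5 lower. Thinned counts hold fewer UMIs per gene. Leaving out endothelial and Kupffer cells with T transcripts, comparing T cells at 40 members and thinning the phase lists were chosen after seeing the data. No paired analysis was possible because each group has 1 library. Depth limits the rare classes, where 1 cell can set a value.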
